A study of Mus musculus with 18 samples.

Results

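Granzymes, perforin and serglycin make up the load of the cytotoxic granule, and 10 genes of this load were followed through a culture model of CD8+ T cell exhaustion: the granzymes *Gzma*, *Gzmb*, *Gzmc*, *Gzmd*, *Gzme*, *Gzmf*, *Gzmk* and *Gzmm*, the perforin gene *Prf1* and the serglycin gene *Srgn*. They were chosen by gene symbol, without use of their measured values but with earlier results of these data known. They were matched to 10 of the 45706 genes in the deposited tables. OT-I cells are CD8+ T cells from mice whose transgenic T cell receptor recognizes the ovalbumin peptide OVA(257-264). Purified cells were cultured with IL-7 and IL-15. Repeat peptide stimulated cells received the peptide at 10 ng/ml every day for 5 days, whereas single peptide stimulated cells had it for 48 hours only and were then cultured without it. Between day 5 and day 8 both were kept with 1 µM ibrutinib, a kinase inhibitor, or with DMSO, its solvent, and live cells were lysed on day 8. By the study's methods the peptide stayed in the medium of repeat peptide cells during the ibrutinib treatment, so these cells differed from single peptide cells in peptide contact up to the harvest as well. RNA-seq was done on 18 libraries, of which 4 came from repeat peptide cells with DMSO, 5 from repeat peptide cells with ibrutinib, 5 from single peptide cells with DMSO and 4 from single peptide cells with ibrutinib. Each group has a library from experiments A, B, C and D. The fifth repeat ibrutinib library comes from experiment E and the fifth single DMSO library from experiment F. The strain label of all 18 libraries is wild type OT-1. In experiments B to E the genotype label mentions a *btk* knockout, in A it reads "INHB-1 left over" and in F "PKC igoni-2". These entries were taken for experiment names, because the study's account of its RNA-seq has no *btk* deficient cells in it.

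Cytotoxic T cells kill by secreting granules onto a target cell. Perforin forms pores in membranes and so lets the granzymes, a family of serine proteases, reach the cytosol of the target, and the proteoglycan serglycin binds and packs these proteins inside the granule. Granzyme B cleaves after aspartate and starts apoptosis, granzymes A and K cleave after basic residues, granzyme M cleaves after methionine or leucine, and in mice a row of further granzyme genes lies beside *Gzmb*.

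Library depth ranged from 23445922 to 51995372 expected counts, the authors' estimates of the number of reads per gene, and a library with more counts fixes rare transcripts better. The 8 markers of CD8+ T cells were expressed in every library, at a summed level of 4034 to 5300 TPM, a unit of transcript abundance that the authors scaled for gene length and depth. Natural killer cells, mast cells and basophils also use granzyme or neighbouring protease genes. Of the natural killer markers *Ncr1* was at most 1.16, *Klra8* 1.04 and *Tyrobp* 2.29 TPM. *Klrb1c* reached 11.3 TPM in repeat DMSO, 25.2 in repeat ibrutinib, 1.94 in single DMSO and 2.63 in single ibrutinib libraries. For *Fcer1g* the highest values were 8.97, 11.5, 8.14 and 1.21 TPM in the same order. The 5 natural killer markers summed to 3.54 to 21.1 TPM in repeat DMSO, 3.30 to 39.5 in repeat ibrutinib, 1.21 to 11.8 in single DMSO and 3.21 to 4.16 in single ibrutinib libraries. *Mcpt4* was at 0 in all libraries and *Cpa3* at most 0.63 TPM. Of the 7 mast cell and basophil markers only *Kit* had a group mean over 1 TPM, and their sum was 10.7 to 31.2 TPM in repeat and 1.62 to 7.44 TPM in single peptide libraries. The part of these cells in the values below was not tested. In bulk RNA, fewer cells that express a gene and less RNA per cell cannot be told apart.

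*Gzmb*, *Gzmc*, *Gzmd*, *Gzme* and *Gzmf* lie in a single run on the minus strand of chromosome 14 (GRCm38), *Gzme* from 56117626 to 56120625, *Gzmd* from 56129556 to 56132608, *Gzmf* from 56205263 to 56211417, *Gzmc* from 56231441 to 56234656 and *Gzmb* from 56258838 to 56262260. *Gzma* (chromosome 13, 113093825 to 113100981) and *Gzmk* (chromosome 13, 113171608 to 113225908) are neighbours too, and *Prf1* (61297833 to 61304680), *Srgn* (62493833 to 62527451) and *Gzmm* (79689020 to 79695261) lie on chromosome 10. Each of 5 genes of the chromosome 14 run, *Gzmb* included, had its highest mean TPM in repeat DMSO libraries. The 100 bases before their starts are shown because 4 of these genes are close copies, while *Gzmb*, beside them, has another sequence. They are the RefSeq promoters on GRCm38.p6, minus strand, 5′ to 3′, at chr14:56234658-56234757 for *Gzmc*, chr14:56132594-56132693 for *Gzmd*, chr14:56120626-56120725 for *Gzme*, chr14:56211408-56211507 for *Gzmf* and chr14:56262335-56262434 for *Gzmb*. Capitals mark an octamer at most 1 base away from the cyclic AMP response element TGACGTCA, the site of CREB and ATF factors.
Gzmc: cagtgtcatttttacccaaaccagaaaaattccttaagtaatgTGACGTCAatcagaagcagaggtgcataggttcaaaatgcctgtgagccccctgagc
Gzmd: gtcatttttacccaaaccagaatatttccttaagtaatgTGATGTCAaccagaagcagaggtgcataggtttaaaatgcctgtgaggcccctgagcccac
Gzme: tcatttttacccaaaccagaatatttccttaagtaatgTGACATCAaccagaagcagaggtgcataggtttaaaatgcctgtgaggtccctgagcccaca
Gzmf: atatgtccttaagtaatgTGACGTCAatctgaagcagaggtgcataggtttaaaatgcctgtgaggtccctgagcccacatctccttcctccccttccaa
Gzmb: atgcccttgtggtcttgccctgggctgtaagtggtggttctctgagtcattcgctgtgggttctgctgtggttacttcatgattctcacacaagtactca

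The windows of *Gzmc* and *Gzmf* held the full octamer, 57 and 82 bases before the start. So did that of *Gzmg*, 77 bases before it, and this granzyme gene of the run had at most 4 counts in any library. Counted from 1 at the 5′ end of TGACGTCA, *Gzmd* differed from it by C4T and *Gzme* by G5A. No octamer within 1 base of it was found in the 100 bases of *Gzmb*. Over the 250 bases before the start and on both strands, TGACGTCA occurred in 1.55% of all 32851 promoter windows. The RUNX core TGTGGT occurred in 14.0% of them and in a window of 9 of the 10 genes, all but *Gzmk*, with *Gzmm* and *Srgn* having more than 1 window each. The windows of *Gzmc*, *Gzmd*, *Gzme*, *Gzmf* and *Gzmg* are 70.2% to 94.8% identical in pairs, so these genes are not independent cases of the core. The AP-1 motif TGANTCA occurred in 6.75% of the windows and, among the 10 genes, in that of *Gzmb*. ACGTCA, which lies inside the octamer, occurred in 6.47% of the windows and, among the 10 genes, in those of *Gzmc*, *Gzmf*, *Prf1* and *Srgn*. The T-box motif AGGTGTGA was in 1.12% of the windows and in none of these genes. These are matches of letters, and binding was not measured.

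Close copies matter for the counting as well. The coding sequences of *Gzmc*, *Gzmd*, *Gzme*, *Gzmf* and *Gzmg*, a further granzyme of the run, were 71.6% to 93.3% identical in pairs, the highest being *Gzmd* with *Gzme*, and *Gzmb* was 65.5% to 76.3% identical to these 5. Of the 50-base stretches of the *Gzmd* transcript 21.9% also occur in another gene, and the share was 20.65% for *Gzme*, 7.36% for *Gzmf* and 4.14% for *Gzmc*. It was 0% for *Gzmb*, *Gzma*, *Gzmk*, *Gzmm*, *Prf1* and *Srgn*. RSEM shares reads out between genes they fit equally, yet the expected counts of all 10 genes were whole numbers in all 18 libraries, to the decimals the tables print. No read was thus visibly divided between genes, and how reads that fit both *Gzmd* and *Gzme* were assigned cannot be seen from these counts.

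The granzyme message of repeat peptide cells was mostly *Gzmb* with *Gzmc*, and that of single peptide cells mostly *Gzmb*, with *Gzma* and *Gzmm* next to it. The summed TPM of the granzymes, with *Gzmg* and *Gzmn* included, was 2195 ± 670 (SD, n = 4) in repeat DMSO, 868 ± 257 (SD, n = 5) in repeat ibrutinib, 193 ± 49.2 (SD, n = 5) in single DMSO and 74.5 ± 20.5 (SD, n = 4) in single ibrutinib libraries. The ranges of the 4 groups did not overlap. *Gzmb* gave 72.3% to 76.2% of this sum in repeat DMSO, 75.2% to 88.7% in repeat ibrutinib, 90.3% to 94.96% in single DMSO and 73.5% to 93.3% in single ibrutinib libraries. *Gzmc* gave 22.9% to 25.3% in repeat DMSO and 10.4% to 22.1% in repeat ibrutinib libraries, which did not overlap, and at most 1.65% in any single peptide library. Among all genes, *Gzmb* ranked between 86 and 139 by TPM in repeat DMSO and between 1330 and 2851 in single ibrutinib libraries. *Srgn* stayed between rank 203 and rank 293 in all 18.

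**Figure D1:**
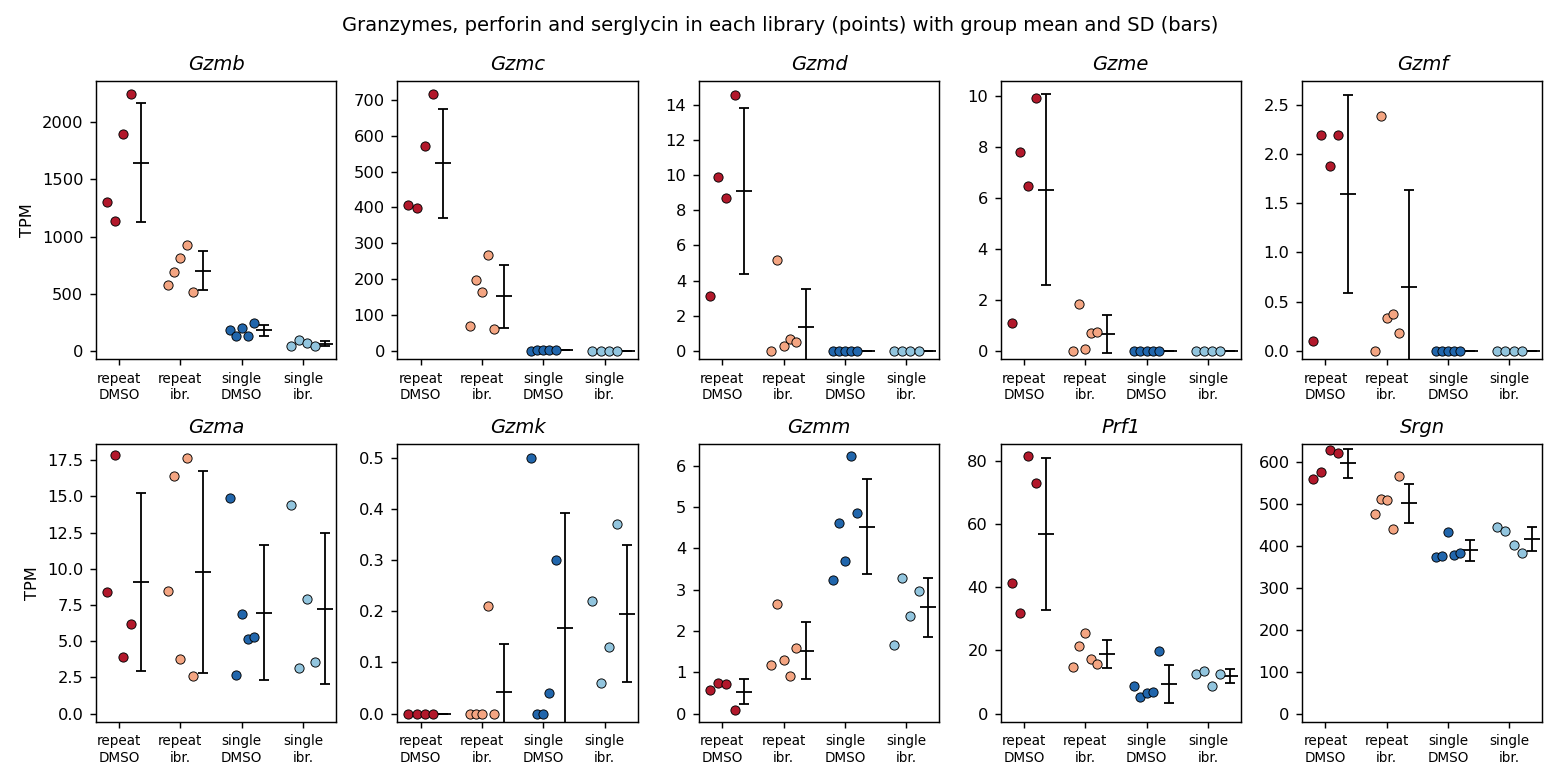
TPM of each of the 10 genes (1 panel each, linear axis with its own scale) in every library of the 4 groups, with the group mean and SD beside the points (bars are cut off under 0). *Gzmb* was highest in the 4 repeat DMSO libraries (1136 to 2249.7 TPM) and lowest in the 4 single ibrutinib libraries (46.3 to 94.4 TPM), the mean of *Gzmm* was highest in single DMSO libraries (3.24 to 6.22 TPM), and *Gzma* overlapped between all groups.

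**Figure D2:**
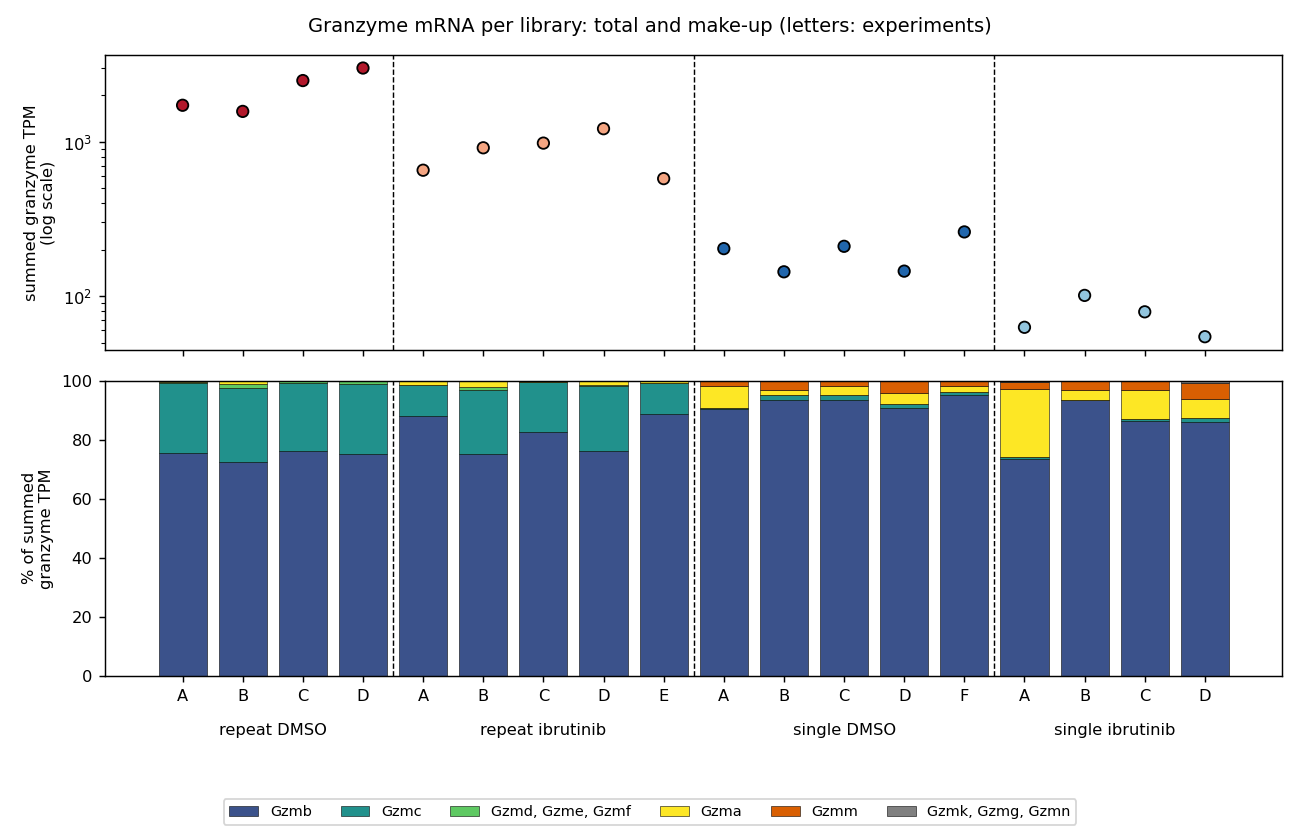
Summed TPM of the granzymes in each library (upper panel, log scale) and the percentage of that sum from each granzyme (lower panel, stacked bars), ordered by group with experiment letters. The sum was 1571 to 2999 TPM in repeat DMSO and 54.7 to 101 TPM in single ibrutinib libraries, and *Gzmc* was over 10% of it in every repeat peptide library and at most 1.65% in single peptide libraries.

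The first question was whether ibrutinib changed the granule genes of repeat peptide cells. *Gzmb*, *Gzmc* and *Prf1* fell, *Gzma* did not pass the test, and *Gzmm* had a higher mean that did not pass it either. *Srgn* did not pass it, and was lower by the criteria below only with the experiment as a block of the fit. A gene was called where edgeR's quasi-likelihood test over 12255 genes gave it an adjusted p-value (Benjamini-Hochberg) under 0.05, with a mean normalized count of at least 50 over the 18 libraries and an absolute log2 fold change above 0.2, and all adjusted p-values below are from this test unless another is named. Of the 10 genes 9 were tested, all but *Gzmk*, and 6 had a mean count of at least 50: *Gzma*, *Gzmb*, *Gzmc*, *Gzmm*, *Prf1* and *Srgn*. *Gzmd*, *Gzme* and *Gzmf* passed the filter on low counts through repeat peptide cells alone. They needed the repeat DMSO libraries, where they were highest, to pass it, so their ibrutinib tests in repeat peptide cells are not support for a fall. With ibrutinib in repeat peptide cells 3 of the genes were called lower and 0 higher, where 1.92% of all tested genes were called lower and 4.01% higher. The median log2 fold change of the 6 genes over the mean count was -0.63, and that of all tested genes 0.0045. Ibrutinib in single peptide cells gave 1 lower and 0 higher, where 2.69% of genes were lower and 0.351% higher. The median of the 6 was then -0.25, against 0.0099 for all genes.

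Repeat against single peptide stimulation asks how the granule load differed between the chronically and the briefly stimulated cells. With DMSO, 3 genes were called higher in repeat peptide cells (*Gzmb*, *Gzmc* and *Prf1*) and 1 lower (*Gzmm*), where 22.8% of all genes were higher and 24.2% lower. With ibrutinib, 2 were called higher (*Gzmb* and *Gzmc*) and 0 lower, where 18.7% and 19.6% of all genes were. *Gzmd*, *Gzme* and *Gzmf* entered these comparisons only through the repeat peptide cells in which they were seen, so no test of them against single peptide cells is given. With so many genes called in either direction, these counts say nothing particular about the granule genes. The ibrutinib effect itself was compared between repeat and single peptide cells by the interaction of the fit, in which 1 gene was called lower (*Prf1*) and 0 higher, where 0.212% and 1.04% of all genes were. The comparisons share their control libraries, so their calls are not independent of each other.

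*Gzmb* (ENSMUSG00000015437), the main granzyme of these cells, stood at 1301, 1136, 1896 and 2249.7 TPM in repeat DMSO libraries A, B, C and D. With ibrutinib repeat peptide cells had 575, 687, 809, 925 and 511 TPM in A to E. In single peptide cells it was 184, 135, 196, 132 and 248 TPM in DMSO libraries A, B, C, D and F, and 46.3, 94.4, 68.5 and 46.9 TPM in ibrutinib libraries A to D. The order was repeat DMSO, repeat ibrutinib, single DMSO, single ibrutinib, and no neighbouring groups overlapped. Ibrutinib lowered its normalized count in repeat peptide cells by a log2 fold change of -1.12 (SE 0.251, 95% CI -1.64 to -0.59, adjusted p = 0.01097). Without repeat DMSO library D this became -0.88 with an adjusted p of 0.0671, and over all 17 alternatives the adjusted p lay between 0.0004272 and 0.0671. In single peptide cells the log2 fold change was -1.41 (SE 0.262, 95% CI -1.96 to -0.86, adjusted p = 0.006767), with adjusted p from 3.656e-06 to 0.03509 over the alternatives. *Gzmb* was lower with ibrutinib in 4 of 4 experiments in both kinds of cells. The difference between these effects was 0.30 on the log2 scale (95% CI -0.45 to 1.04, adjusted p = 0.8587). Repeat peptide cells exceeded single peptide cells by 3.04 (SE 0.263, adjusted p = 4.281e-08) with DMSO and by 3.33 (SE 0.285, adjusted p = 6.931e-08) with ibrutinib, both as log2 fold changes. The mean of repeat ibrutinib libraries, 701 ± 169 TPM (SD, n = 5), thus remained above the 179 ± 48.0 TPM (SD, n = 5) of single DMSO libraries.

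*Gzmc* (ENSMUSG00000079186), a granzyme of the same run that T cells are known to express late after activation, was abundant in repeat peptide cells and near 0 in single peptide cells. It was at 408, 397, 571 and 716 TPM in repeat DMSO libraries A to D and at 69.7, 198, 164, 268 and 59.8 TPM in repeat ibrutinib libraries A to E. Single DMSO libraries A, B, C, D and F had 1.08, 1.99, 3.47, 2.09 and 2.72 TPM, and single ibrutinib libraries 0.40, 0.28, 0.30 and 0.81 TPM. All 4 groups were apart. The log2 fold change with ibrutinib was -1.70 in repeat peptide cells (SE 0.356, 95% CI -2.45 to -0.95, adjusted p = 0.006839), and it was called under all 17 alternatives (adjusted p up to 0.0418). The single peptide value was -2.28 (SE 0.647, 95% CI -3.63 to -0.92), which did not pass (adjusted p = 0.06315). With the experiment as a block of the fit it was -2.22 with an adjusted p of 0.009829 and was called, as it was with DESeq2's Wald test and without single DMSO library A (adjusted p = 0.04718), and over the alternatives the adjusted p ranged from 0.001099 to 0.2107. *Gzmc* was lower with ibrutinib in 4 of 4 experiments in both kinds of cells. The difference of these effects was 0.58 on the log2 scale (95% CI -1.04 to 2.19, adjusted p = 0.8747). Repeat peptide cells exceeded single peptide cells by a log2 fold change of 7.63 with DMSO (SE 0.473, adjusted p = 9.715e-10) and of 8.21 with ibrutinib (SE 0.58, adjusted p = 7.272e-09).

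*Gzmd* (ENSMUSG00000059256), *Gzme* (ENSMUSG00000022156) and *Gzmf* (ENSMUSG00000015441), the closest copies among these genes, had 0 counts in all 9 single peptide libraries. *Gzmd* was at 3.10, 9.92, 8.69 and 14.6 TPM in repeat DMSO libraries A to D and at 0, 5.17, 0.30, 0.70 and 0.53 TPM in repeat ibrutinib libraries A to E. The ibrutinib library of experiment B reached into the DMSO range, and the other 4 lay under it. *Gzme* was at 1.11, 7.80, 6.45 and 9.90 TPM with DMSO and at 0, 1.85, 0.08, 0.72 and 0.74 TPM with ibrutinib, again with library B above the lowest DMSO library. *Gzmf* was at 0.10, 2.19, 1.88 and 2.19 TPM with DMSO and at 0, 2.39, 0.33, 0.37 and 0.18 TPM with ibrutinib, and library B had the highest value of all. Experiment A was the lowest DMSO library for all 3 genes, and its ibrutinib library had no count of them. By normalized count *Gzmd* and *Gzme* were lower with ibrutinib in 4 of 4 experiments, and *Gzmf* clearly so in C and D only, since A had 1 count against 0 and B differed by -0.099 on the log2 scale and was higher by TPM. None of the 3 passed the test in repeat peptide cells. The log2 fold change was -2.82 for *Gzmd* (SE 0.904, adjusted p = 0.0913), -3.11 for *Gzme* (SE 0.884, adjusted p = 0.05964) and -1.36 for *Gzmf* (SE 0.965, adjusted p = 0.4464). With the experiment as a block *Gzmd* gave -3.54 (adjusted p = 0.01295), *Gzme* -3.69 (adjusted p = 0.00549) and *Gzmf* -1.57 (adjusted p = 0.1906), so that *Gzmd* and *Gzme* then passed the adjusted p but not the mean count. Since these genes needed their repeat DMSO libraries, where they were highest, to enter the test, these passes are not support for a fall. Over all alternatives the adjusted p ranged from 0.00296 to 0.2481 for *Gzmd*, from 0.004059 to 0.18 for *Gzme* and from 0.1906 to 0.6608 for *Gzmf*, and the mean normalized counts of 35.5, 22.4 and 7.11 over the 18 libraries lay under the threshold. Set against 3 counts in each single peptide DMSO library, the mean normalized count of repeat DMSO libraries was at least 39.7-fold higher for *Gzmd*, 25.8-fold for *Gzme* and 6.28-fold for *Gzmf*. With ibrutinib the bounds were 6.69-fold, 3.51-fold and 2.92-fold. All these bounds are for group means and not for each library, since repeat ibrutinib library A had no count of the 3 genes. The repeat ibrutinib means of *Gzmd* and *Gzmf*, 19.3 and 8.41, rested largely on library B, at 68.3 and 28.4. No comparison of the ibrutinib effect with single peptide cells can be made for these genes.

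Of the other granzymes of the chromosome 14 run, *Gzmg* had at most 4 counts and 0 in 16 libraries, and *Gzmn* had no count in any. None of 8 neighbouring genes of mast cell proteases and cathepsin G passed the filter on low counts.

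*Gzma* (ENSMUSG00000023132), a tryptase-like granzyme, passed no test. It was at 8.42, 17.8, 3.91 and 6.20 TPM in repeat DMSO and 8.45, 16.4, 3.78, 17.7 and 2.60 TPM in repeat ibrutinib libraries. Single DMSO libraries had 14.85, 2.66, 6.85, 5.18 and 5.26 TPM and single ibrutinib libraries 14.4, 3.16, 7.92 and 3.57 TPM. All 4 groups overlapped. Libraries of the same experiment and stimulation were alike in A, B and C, at 8.42 and 8.45 TPM for repeat peptide cells of A, 17.8 and 16.4 of B and 3.91 and 3.78 of C. Experiment D was different, with 6.20 TPM for DMSO and 17.7 for ibrutinib. The log2 fold change with ibrutinib was 0.14 in repeat peptide cells (95% CI -1.08 to 1.35, adjusted p = 0.9194) and 0.096 in single peptide cells (95% CI -1.13 to 1.32, adjusted p = 0.9748). Repeat minus single peptide cells gave 0.25 with DMSO (95% CI -0.97 to 1.47, adjusted p = 0.7392) and 0.29 with ibrutinib (95% CI -0.93 to 1.51, adjusted p = 0.7161). The difference of the ibrutinib effects was 0.041 (95% CI -1.68 to 1.76, adjusted p = 0.9955). The sign of each of these values turned when certain libraries were left out in turn.

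*Gzmk* (ENSMUSG00000042385), the neighbour of *Gzma*, was barely seen. It had at most 8 counts and 0 counts in 10 of the 18 libraries, including all 4 repeat DMSO libraries. Single DMSO libraries A, D and F had 0.50, 0.04 and 0.30 TPM, single ibrutinib libraries 0.22, 0.06, 0.13 and 0.37 TPM, and repeat ibrutinib library D 0.21 TPM. At this depth *Gzmk* did not pass the filter on low counts, and no difference between the groups was tested.

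*Gzmm* (ENSMUSG00000054206), which cleaves after methionine or leucine, was lowest where *Gzmb* was highest. It was at 0.56, 0.74, 0.72 and 0.09 TPM in repeat DMSO libraries and at 1.18, 2.66, 1.3, 0.90 and 1.58 TPM in repeat ibrutinib libraries. Single DMSO libraries had 3.24, 4.61, 3.68, 6.22 and 4.86 TPM and single ibrutinib libraries 1.65, 3.28, 2.37 and 2.97 TPM. Both repeat peptide groups were apart, while repeat ibrutinib library B overlapped the single ibrutinib range and single ibrutinib library B that of single DMSO. With DMSO the log2 fold change of repeat against single peptide cells was -3.19 (SE 0.496, 95% CI -4.23 to -2.15, adjusted p = 3.302e-05), the only call of *Gzmm*, and its mean count of 56.6 was just over the threshold. The single peptide groups, where it was high, carried that mean over the threshold. Group means were 11.2 in repeat DMSO, 34.6 in repeat ibrutinib, 105 in single DMSO and 69.1 in single ibrutinib libraries. With ibrutinib the log2 fold change of repeat against single peptide cells was -1.004 (95% CI -1.91 to -0.10, adjusted p = 0.06822), and with the experiment as a block -1.22, which was called (adjusted p = 0.02226, range over the alternatives 0.02226 to 0.1815), as it was without repeat ibrutinib library E (0.03961) or single ibrutinib library A (0.04866). *Gzmm* had higher values with ibrutinib in repeat peptide cells in 4 of 4 experiments and lower values in single peptide cells in 4 of 4. The log2 fold change in repeat peptide cells was 1.58 (SE 0.484, 95% CI 0.57 to 2.59), which did not pass (adjusted p = 0.05686, range 0.009665 to 0.1463). It passed with DESeq2's Wald test, without repeat DMSO library B (adjusted p = 0.04274) and without repeat ibrutinib library C (0.04722) or D (0.04469). The single peptide value was -0.60 (95% CI -1.5 to 0.30, adjusted p = 0.6143). The difference of the effects, 2.18 on the log2 scale (SE 0.646, 95% CI 0.83 to 3.54), did not pass either (adjusted p = 0.1211, range 0.0152 to 0.2102).

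**Figure D3:**
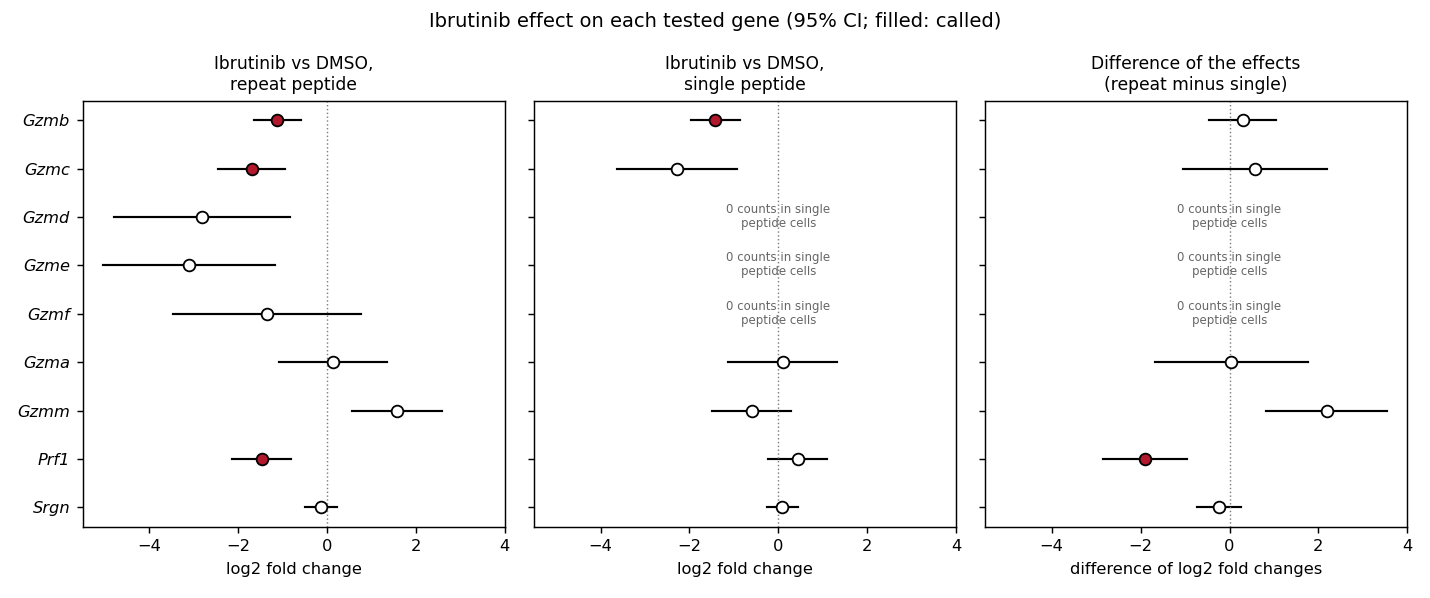
Log2 fold change of ibrutinib against DMSO for the 9 tested genes in repeat peptide cells (left) and single peptide cells (middle), and the difference of these effects (right). Points are estimates of edgeR's fit, lines 95% confidence intervals, and filled points genes that were called. *Gzmb* was called lower in both kinds of cells, *Gzmc* and *Prf1* in repeat peptide cells, and *Prf1* was the called difference of effects at -1.91.

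*Prf1* (ENSMUSG00000037202), the pore-forming partner of the granzymes, fell with ibrutinib in repeat peptide cells, and its ibrutinib effect differed in single peptide cells. It stood at 41.4, 31.8, 81.6 and 73.1 TPM in repeat DMSO libraries A to D and at 14.9, 21.3, 25.6, 17.4 and 15.6 TPM in repeat ibrutinib libraries A to E. Single DMSO libraries A, B, C, D and F had 8.71, 5.27, 6.46, 6.88 and 19.75 TPM, and single ibrutinib libraries 12.5, 13.6, 8.72 and 12.6 TPM. The repeat peptide groups did not overlap. Library F, from an experiment with no other library, was far above the other 4 single DMSO libraries and inside the repeat ibrutinib range, and the other 4 lay under the lowest single ibrutinib library (8.72 TPM). In repeat peptide cells the log2 fold change with ibrutinib was -1.47 (SE 0.317, 95% CI -2.14 to -0.81, adjusted p = 0.008487), and it was called under all 17 alternatives (adjusted p up to 0.04418). In single peptide cells it was 0.43 (SE 0.321, 95% CI -0.24 to 1.11, adjusted p = 0.6414, range 0.02375 to 0.8599). *Prf1* was higher with ibrutinib in single peptide cells in 4 of 4 experiments, by 0.60 to 1.29 on the log2 scale, and lower in repeat peptide cells in 4 of 4. With the experiment as a block, in which library F has no partner, the single peptide value was 0.86 and was called (adjusted p = 0.02375). The difference of the 2 effects was -1.91 on the log2 scale (SE 0.45, 95% CI -2.85 to -0.96, adjusted p = 0.04186). This call was lost when any of 14 of the 18 libraries was left out (adjusted p 0.054 to 0.113), with no filter on low counts (0.1085) and with limma on TPM (0.05366), and it was kept without repeat DMSO library A or B, repeat ibrutinib library C or single DMSO library F. Without library F the difference was -2.31 (adjusted p = 0.002443), and with the experiment as a block -2.33 (adjusted p = 0.000589), with a range of 0.000589 to 0.113 over all alternatives. Repeat peptide cells exceeded single peptide cells by a log2 fold change of 2.45 with DMSO (SE 0.326, adjusted p = 6.656e-06), whereas with ibrutinib the value was 0.54 (95% CI -0.13 to 1.22, adjusted p = 0.1818, range 0.02884 to 0.3447).

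The balance of *Gzmb* to *Prf1* moved with these changes. The ratio of their TPM was 23.2 to 35.7 in repeat DMSO, 31.6 to 53.3 in repeat ibrutinib, 12.5 to 30.4 in single DMSO and 3.70 to 7.86 in single ibrutinib libraries. The single ibrutinib libraries lay under all others, and repeat DMSO overlapped both repeat ibrutinib and single DMSO.

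**Figure D4:**
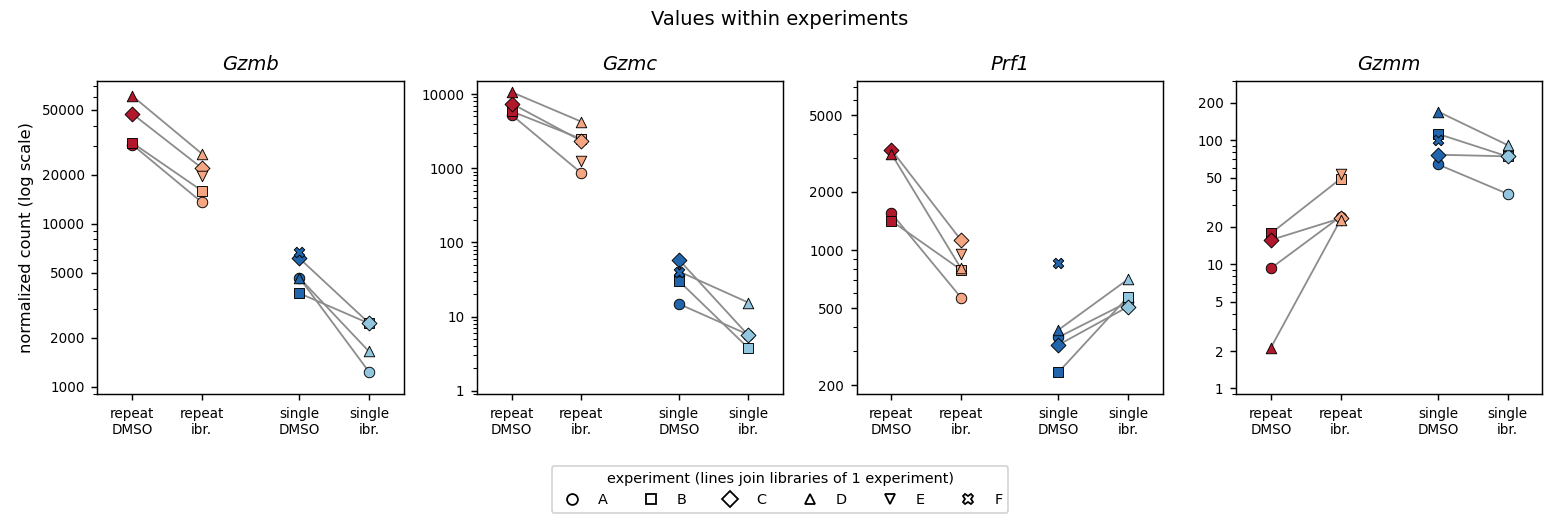
Normalized counts (log scale) of *Gzmb*, *Gzmc*, *Prf1* and *Gzmm* in each library, with lines joining the DMSO and ibrutinib libraries of the same experiment (A to D). All lines of *Gzmb* and *Gzmc* go down, the lines of *Prf1* go down in repeat and up in single peptide cells, where library F stands apart at 863, and those of *Gzmm* go the other way.

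*Srgn* (ENSMUSG00000020077), the packing proteoglycan, was abundant in every library. It was at 559, 577, 628 and 621 TPM in repeat DMSO libraries A to D and at 476, 512, 509, 441 and 567 TPM in repeat ibrutinib libraries A to E. Single DMSO libraries had 374, 377, 434, 377 and 382 TPM and single ibrutinib libraries 445, 435, 401 and 382 TPM. By TPM, repeat DMSO libraries lay above all single peptide libraries, and repeat ibrutinib library E lay inside the repeat DMSO range. Neither held by normalized count, the measure of the tests. There single DMSO library D (7137) and single ibrutinib library C (6840) exceeded repeat DMSO library A (6742). Repeat ibrutinib library E (10664) lay above the highest repeat DMSO library (8256). No comparison of *Srgn* was called. Repeat against single peptide cells with DMSO gave a log2 fold change of 0.40 (SE 0.168, 95% CI 0.046 to 0.75, adjusted p = 0.05316, range 2.309e-05 to 0.1192), and with the experiment as a block 0.37, which was called (adjusted p = 0.0009872). It was also called with the effective length of each library as an offset, in a fit of the 2 groups alone, with limma on TPM, and without repeat DMSO library A or single DMSO library C or D. The ibrutinib value in repeat peptide cells was -0.14 (95% CI -0.49 to 0.22, adjusted p = 0.684, range 0.009071 to 0.9213), and with the block -0.35, which was called (adjusted p = 0.009071). *Srgn* was lower with ibrutinib in repeat peptide cells in 4 of 4 experiments, and library E, the highest by normalized count, has no DMSO library of its experiment. In single peptide cells the value was 0.093 (95% CI -0.26 to 0.45, adjusted p = 0.8921). Repeat against single peptide cells with ibrutinib gave 0.17 (95% CI -0.19 to 0.52, adjusted p = 0.4429, range 0.03524 to 0.8143). The difference of the effects was -0.23 (95% CI -0.73 to 0.27, adjusted p = 0.83), and -0.41 with the block, which was called (adjusted p = 0.04812).

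The genes whose log2 CPM over the 18 libraries was most like that of *Gzmb* were *Nek6* (Pearson r = 0.991), *Tnfrsf9* (0.986), which encodes the costimulatory receptor 4-1BB, and *Nr4a1* (0.985), an early target of T cell receptor signalling. For *Prf1* they were *Cd82* (0.931), *Zfp105* (0.915, with a mean normalized count of only 7.42) and *Pik3r2* (0.911). These values describe the likeness among 12246 other genes, and the 18 points share 4 groups and their experiments.

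Genes that act on the granule and its load were followed as 4 lists. The first held 5 serpins, inhibitors that protect a cell from its own proteases. With DMSO 4 of the 5 were higher in repeat peptide cells and none lower, where 22.8% of all genes were higher and 24.2% lower. The median log2 fold change was 2.19 against -0.0022 for all genes. Both the count and the median include *Serpinb9b*, which had to differ (below), so neither is a measure of the other serpins alone. *Serpinb6a* gave 2.61 (SE 0.211, adjusted p = 1.808e-08) and *Serpinb6b* 2.19 (SE 0.279, adjusted p = 4.277e-06). *Serpinb9b* had a mean normalized count of 203 in repeat DMSO, 38.2 in repeat ibrutinib, 2.78 in single DMSO and 2.22 in single ibrutinib libraries. It passed the filter on low counts through repeat peptide cells alone and so had to differ. No test of it against single peptide cells is given. The remaining higher gene was *Serpinb9*, the inhibitor of granzyme B, at 1.12 (adjusted p = 0.0001876), named after its value was seen. With ibrutinib in repeat peptide cells 1 of the 5 was lower (1.92% of all genes were), *Serpinb9b*, at -2.42 (SE 0.706, adjusted p = 0.04736), and the median was -0.20. With ibrutinib in single peptide cells 1 was lower too (2.69% of all genes were), *Serpina3g*, known as an inhibitor of cathepsins rather than of granzymes, at -1.28 (adjusted p = 0.02165), and its effect differed in repeat peptide cells by 1.88 (SE 0.409, adjusted p = 0.02598). *Serpina3g* was likewise named after its value was seen. Between the ibrutinib groups 5 of the 5 were higher in repeat peptide cells (18.7% of all genes were), with a median of 2.29 against -0.018 for all genes. This count and median again include *Serpinb9b*, which had to differ.

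Of 12 genes for sorting and granule make-up, 3 were higher and 3 lower in repeat peptide cells with DMSO (median 0.15), about the shares of all genes (22.8% and 24.2%), so the counts say nothing particular about the list. Higher were *Gnptab*, which makes the mannose 6-phosphate tag that sends granzymes to granules, at 1.19 (adjusted p = 9.027e-07), *Ap3b1*, a subunit of the AP-3 adaptor, at 0.68 (adjusted p = 3.123e-05) and *Calr*, which encodes the calcium-binding protein calreticulin, at 0.42 (adjusted p = 0.01391). Lower were *Lyst*, the lysosomal trafficking regulator, at -1.40 (adjusted p = 2.187e-05), *Ap3d1* at -0.33 (adjusted p = 0.007686) and *Lamp1* at -0.27 (adjusted p = 0.01752). Ibrutinib in repeat peptide cells gave 1 higher and 1 lower, where 4.01% and 1.92% of all genes were. These were *Lyst* at 0.70 (SE 0.203, adjusted p = 0.04787) and *Gnptab* at -0.60 (SE 0.132, adjusted p = 0.009755). These comparisons share the repeat DMSO libraries.

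Of 13 genes for docking and fusion of granules 12 were tested, and with DMSO 5 were higher and 4 lower in repeat peptide cells (median 0.034), where 22.8% and 24.2% of all genes were. The 3 with the largest rise were *Sytl2*, which encodes a Rab27 effector, at 1.84 (adjusted p = 8.788e-05), *Stx11*, a syntaxin of granule fusion, at 1.82 (adjusted p = 5.882e-06) and *Vamp8* at 0.92 (adjusted p = 0.003117). The 3 with the largest fall were *Sytl1*, another Rab27 effector, at -1.39 (adjusted p = 1.126e-05), *Sytl3* at -0.97 (adjusted p = 7.997e-06) and *Vamp2* at -0.70 (adjusted p = 0.01888). With ibrutinib in repeat peptide cells 1 was called (4.01% of all genes were higher), *Sytl1*, higher by 0.73 (SE 0.191, adjusted p = 0.02708). Of 7 genes for processing of granzymes and perforin 6 were tested and 1 was called between the DMSO groups, *Ctsb*, the lysosomal protease cathepsin B, higher in repeat peptide cells by 0.24 (adjusted p = 0.04836). Between the ibrutinib groups 4 of the sorting and 4 of the docking genes were higher in repeat peptide cells, 2 and 2 were lower, and 1 processing gene was lower, where 18.7% and 19.6% of all genes were higher and lower. None of the 6 processing genes was called for ibrutinib in repeat or single peptide cells, and none of the sorting or docking genes was called for ibrutinib in single peptide cells.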

How the data were processed

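Strand-specific, paired-end libraries were made from polyadenylated RNA of OT-I CD8+ T cells. The authors trimmed the reads with Trim Galore, mapped them to GRCm38 with STAR inside RSEM 1.3.1 and deposited a gene table for each library. The deposited expected counts are read numbers that RSEM estimates and that may hold fractions. Levels were taken from the deposited TPM, which the authors' pipeline scales to a fixed total, and the deposited effective length (in bases, another value of these tables) served as an offset in an alternative.

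Gene names and coordinates came from GENCODE M21 (45143 of 45706 genes matched) and promoters from RefSeq (GRCm38.p6), in which all 10 genes were found. Rounded expected counts of 27903 genes (protein-coding or lncRNA) were used. Genes passing filterByExpr (12255) were normalized by TMM and fitted in a single model of the 4 groups with edgeR 4.0.16 (glmQLFit, robust, and glmQLFTest, R 4.3.3). A normalized count is the count per effective library size, times the mean of that size. Neither labels nor methods say that the experiments used separate animals, so the p-values measure the spread between these cultures. The scripts were tested on simulated data. Within groups, no 2 libraries were duplicates (chi-square 27.9 to 218 per degree of freedom).

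The experiments come from the genotype label. Deviations from the group means correlated in each of 24 pairs that share an experiment (0.16 to 0.494), so the experiments were treated as pairing the libraries. The model had no block, since the study's methods name none. A fit that adds the experiment, as a replicate block, is an alternative. Others were DESeq2 1.42.0 size factors or its Wald test, no filter, no threshold on the mean count (chosen after seeing the data), all gene types, the length offset, only the compared groups, limma 3.58.1 on log2(TPM + 1), a log2 fold change above 1 and each library left out in turn.

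The 10 genes, the gene lists and the tests were chosen with earlier results of these data known. Named were all 10 genes, of the lists up to 3 called genes with the largest change in each direction for ibrutinib in repeat peptide cells and for repeat against single peptide with DMSO, and the 3 genes most like *Gzmb* and *Prf1* (log2 CPM, prior count 2). *Gzmk* was not tested, so no gene was ranked against it. At this depth the spread between cultures limits the comparisons, apart from genes with few counts.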

Additional observations from a re-analysis of the deposited data

Results flagged for a closer look

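In 6 of 33 group values checked, a library stood far from the others of its group by normalized count, where the threshold used is one that chance passes in about 1 in 20 groups of normally distributed values. *Prf1* was at 863 in single DMSO library F, against 387 in the next highest and 234 in the lowest library. *Srgn* was at 10664 in repeat ibrutinib library E, against 6439 in the next highest, while its TPM in that library, 567, was nearer to the 441 to 512 of the other 4. *Gzmd* was at 68.3 and *Gzmf* at 28.4 in repeat ibrutinib library B, against 11.9 and 5.57 in the next highest, from 60 and 25 counts. *Gzmc* was at 15.4 in single ibrutinib library D, against 5.69, and *Gzmk* at 3.9 in repeat ibrutinib library D, where the other 4 had no count, so that any count would have stood apart. These rest on 15 and 7 counts. The causes were not tested.

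The ibrutinib effect on *Prf1* differed between repeat and single peptide cells by -1.91 on the log2 scale in edgeR's interaction test (adjusted p = 0.04186), a call lost when any of 14 of the 18 libraries was left out, with no filter on low counts and with limma on TPM.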

How the results depend on the processing

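The number of called genes among the 10 stayed at 2 to 4 for ibrutinib in repeat peptide cells under every alternative (2 to 4 with a library left out). In single peptide cells 1 was called, 3 with the replicate block, 2 with DESeq2's Wald test and 1 to 2 with a library left out. Repeat against single peptide cells gave 4 with DMSO and 2 with ibrutinib, 4 to 5 and 2 to 3 with a library left out. With DMSO it was also 5 with the replicate block, the length offset and limma and 6 in a fit of the compared groups alone, and with ibrutinib 3 with the block, DESeq2's Wald test, limma and the compared groups alone. With no threshold on the mean count it was 7 and 5, but the genes gained, *Gzmd*, *Gzme* and *Gzmf*, passed the filter through repeat peptide cells alone and had to differ. The interaction gave 1, and 0 with no filter on low counts, 2 with the replicate block, 2 with DESeq2's Wald test, 0 with limma on TPM and 0 to 1 with a library left out. The replicate block changed the calls of *Gzmc* and *Prf1* in single peptide cells, of *Srgn* in 3 comparisons and of *Gzmm* between the ibrutinib groups, as given above, and no other call. Without single DMSO library D the mean count of *Gzmm* fell under the threshold, at a log2 fold change of -2.94. Signs turned for small values. *Gzma* in repeat peptide cells gave -0.016 with limma and -0.29 to 0.76 with a library left out. Left-out libraries moved it from -0.34 to 0.46 in single peptide cells, from -0.37 to 0.61 between the DMSO groups and from -0.14 to 0.74 between the ibrutinib groups. Its interaction was -0.065 with the length offset, -0.032 with limma and -0.39 to 0.68 with a library left out. *Srgn* between the ibrutinib groups was -0.041 with the replicate block and -0.041 to 0.28 with a library left out, the lowest without library E. The *Gzmc* interaction was -0.81 with limma. The cause was not tested for any of these. Depth limits *Gzmd*, *Gzme*, *Gzmf* and *Gzmk*, and counting intervals would cover counting error only.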
